A study of Mus musculus with 9 samples.

Results

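The genes described here are those of the laminins, the integrins and their basement membrane partners: every protein-coding gene whose symbol is that of a laminin chain, an integrin alpha or beta subunit, agrin, a nidogen, perlecan (Hspg2), dystroglycan (Dag1) or fibronectin (Fn1). The choice was made by name and used no measured value. It found 43 genes among the 21519 protein-coding rows of a count table with 45706 rows. RNA was sequenced from the central nervous system of C57BL6/J mice at 3 stages, with 3 libraries per stage. The E9.5 group was embryonic head tissue (embryonic day 9.5) that had been trimmed of most tissue other than neuroectoderm. The E14.5 group was embryonic brain stripped of its meninges, and the P60 group was adult central nervous system (postnatal day 60) from anaesthetised animals perfused with PBS. No group carried a transgene or an agent under test. Each library started from about a nanogram of total RNA and was made by poly(A)-primed, full-length cDNA amplification. The labels do not say whether replicates came from separate animals, so the p-values reflect library-to-library spread, which may be technical.

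Basement membranes are thin sheets of extracellular matrix that lie under epithelia and around blood vessels, muscle and nerve. Laminins are trimers of an alpha, a beta and a gamma chain that polymerise on the cell surface, where integrins and dystroglycan hold them, and nidogens and perlecan link the laminin layer to the collagen IV network. In the developing brain, radial glial endfeet attach to the basement membrane at the pial surface, and in the adult brain, basement membranes surround the vessels and face the endfeet of astrocytes.

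Levels are given as CPM, the usual unit of reads relative to library depth, after TMM scaling and in the order of replicate number. Between genes, levels are compared only as CPM per kilobase of exon. Differences between stages are log2 fold changes ± SE from edgeR's quasi-likelihood test, fitted once to all 9 libraries, with Benjamini-Hochberg adjustment over the 17971 genes tested. A gene is called where the adjusted p is below 0.05. The tissues are mixtures, so a lower level from fewer cells of a type and one from less RNA per cell cannot be told apart.

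Library totals ran from 30481975 to 35619093 counts. Summed marker levels matched the stages: neural progenitor genes held 1670 to 1920 CPM at E9.5, 2130 to 2820 at E14.5 and 237 to 251 at P60, and oligodendrocyte genes 103 to 118 CPM at E9.5 and 13800 to 16100 at P60. Markers of other tissues were also present. Surface ectoderm genes held 256 to 375 CPM at E9.5 and at most 16.6 later, and genes of mesenchyme and meninges held 985 to 1200 CPM at E9.5, 765 to 1310 at E14.5 and 170 to 192 at P60. Muscle and heart genes summed to 459 CPM in the first E9.5 library, against 16.6 and 18.6 in the others, and choroid plexus genes to 144 to 176 CPM at E9.5, 513 to 777 at E14.5 and 2010 to 4660 at P60. The first E14.5 library stood apart for long genes, such as most of the genes described here. Among members with at least 10 CPM at that stage, 20 of 22 were below the mean of the other E14.5 libraries, with a median log2 difference of -0.72. The same median was -0.37 for the 2544 protein-coding genes with the longest summed exons and 0.44 for the 2546 with the shortest. The second P60 library was high for 15 of 16 such members (median 0.43, against 0.44 for the 2501 longest genes), and the third was low for 15 of 16 (-0.35, against -0.33). In the first E9.5 library 21 of 24 such members were low (-0.26, against -0.19 for the 2380 longest genes). The part of this in the stage differences was not tested, and values without single libraries are given for some of the calls they change.

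Between E9.5 and E14.5, 31 of the 41 members tested were called, 10 higher and 21 lower at E14.5. Of all genes tested, 64.6% were called in this comparison, 34.0% higher and 30.7% lower. The members' median log2 fold change was -0.73, beside 0.03 for all genes. Between E14.5 and P60, 34 of 41 members were called, 12 higher and 22 lower, against a background of 76.1% of genes called, 36.7% higher and 39.4% lower. Here the members' median was -1.0 and that of all genes -0.06. From E9.5 to P60, 35 of 41 were called, 10 higher and 25 lower, where 82.6% of all genes were called, 42.0% higher and 40.6% lower. The median over that whole interval was -1.56 for the members and 0.05 for all genes. The shares of members called were thus near the background in each comparison (75.6%, 82.9% and 85.4%), and the members' calls held more falls than rises. In the first comparison the libraries of the groups did not overlap for 34 of 41 members, in the second for 33 and in the third for 35, where the shares for all genes were 72.1%, 76.3% and 84.9%. The comparisons share libraries and are not independent. Itgax and Itgb6 had too few reads to be tested. A stage mean of at least 10 CPM was reached by 28 of the 43 members, and 15 stayed below it.

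Called in both steps, 13 members fell and fell again, 5 rose and then fell, 5 fell and then rose, and 3 rose and rose again. The same patterns held 14.6%, 11.5%, 8.59% and 14.8% of all genes tested. Those that fell at each step were Lama1, Lama5, Lamb1, Lamb2, Lamc1, Fn1, Hspg2, Dag1, Itga5, Itga6, Itga9, Itga10 and Itgb1. The genes that rose and then fell were Agrn, Lama4, Lamc3, Itga1 and Itga11. Those that fell and then rose included Itgav, Itga8, Itgb5 and Itgae, and those that rose at each step were Itga7, Itgam and Lamb3. A test across the 3 stages called 39 of 41 members, and 91.5% of all genes. The exceptions were Itgal and Itgb8.

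Promoter sequences are shown for a member of each of 3 courses, all from windows free of annotated exons, so that the start of a gene can be read beside its course. The windows are the 250 bases before the RefSeq transcript start in GRCm38.p6, written 5′ to 3′ on the strand of the gene. Agrn (chr4:156197489-156197738, minus strand) rose and then fell, Lama5 (chr2:180225860-180226109, minus strand) fell at both steps, and Itgam (chr7:128062390-128062639, plus strand) rose at both. Capitals mark matches on either strand to the GC box core GGGCGG or to GAGGAA, the core of the sites of PU.1, a transcription factor of myeloid cells.
Agrn: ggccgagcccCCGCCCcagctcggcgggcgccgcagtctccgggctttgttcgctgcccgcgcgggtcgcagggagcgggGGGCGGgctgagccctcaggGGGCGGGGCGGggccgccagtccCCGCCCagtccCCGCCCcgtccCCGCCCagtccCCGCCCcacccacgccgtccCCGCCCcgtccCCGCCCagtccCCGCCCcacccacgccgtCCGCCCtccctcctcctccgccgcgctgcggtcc
Lama5: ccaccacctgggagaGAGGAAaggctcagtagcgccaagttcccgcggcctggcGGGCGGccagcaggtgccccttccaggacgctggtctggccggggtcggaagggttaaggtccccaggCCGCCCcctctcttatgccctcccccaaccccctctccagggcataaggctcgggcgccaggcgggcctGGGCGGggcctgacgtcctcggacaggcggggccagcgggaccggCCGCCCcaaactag
Itgam: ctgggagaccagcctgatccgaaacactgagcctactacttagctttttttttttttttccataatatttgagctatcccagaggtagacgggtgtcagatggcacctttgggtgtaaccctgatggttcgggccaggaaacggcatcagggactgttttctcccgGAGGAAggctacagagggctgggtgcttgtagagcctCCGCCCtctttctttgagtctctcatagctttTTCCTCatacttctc
The Agrn window held 12 GC boxes and no GAGGAA, the Lama5 window 4 GC boxes and 1 GAGGAA, and the Itgam window 1 GC box and 2 GAGGAA. Windows were found for 27 of the 43 members. In at least 1 window, 12 of the 27 had GGGCGG, 14 had GAGGAA, 6 had CCAAT and 0 had TATAAA. Of all 32851 promoter windows of the same length, 32.7% held GGGCGG, 23.3% GAGGAA, 33.8% CCAAT and 12.4% TATAAA. A gene may have several windows, so shares of genes and of windows are not counted over the same units. A match is a description of letters and not a binding site.

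Laminin chains changed in both directions. Of the 11 tested, 5 rose (45.5%) and 6 fell (54.5%) from E9.5 to E14.5. From E14.5 to P60, 2 rose (18.2%) and 7 fell (63.6%). At P60, 4 were higher (36.4%) and 7 lower (63.6%) than at E9.5. For all genes these shares were 34.0% and 30.7%, 36.7% and 39.4%, and 42.0% and 40.6%. Summed over all chains per kilobase, the level was 74.2 ± 6.86 CPM per kb at E9.5, 38.2 ± 8.93 at E14.5 and 10.8 ± 2.43 at P60 (SD, n = 3).

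Lama1 and Lama5 encode the alpha chains of early embryonic and epithelial basement membranes. Lama1 was at 106, 130 and 122 CPM at E9.5, at 23.6, 37.3 and 36.6 CPM at E14.5 and at 1.87, 2.67 and 1.53 CPM at P60. The libraries of the 3 stages did not overlap, and the level at P60 was 59.0-fold below that at E9.5. The fall was 1.88 ± 0.22 on the log2 scale in the first step (adjusted p = 2.5e-05), and in the second step the gene fell by 4.00 ± 0.26 (adjusted p = 1.9e-07). Lama5 stood at 101, 120 and 123 CPM at E9.5, 11.4, 15.3 and 16.8 CPM at E14.5 and 3.83, 5.35 and 3.24 at P60. Its larger step was the first, in which it fell by 2.98 ± 0.21 (adjusted p = 6e-07), and it fell by 1.81 ± 0.22 in the second (adjusted p = 1.9e-05). Whether the first step of Lama5 moves with the surface ectoderm genes, which fell from at least 256 to at most 16.3 CPM, was not tested.

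Lama2 and Lama4 encode the alpha chains known from muscle and vessel basement membranes. Lama2, whose loss causes a congenital muscular dystrophy, had 2.04, 3.25 and 3.83 CPM at E9.5, 6.57, 16.1 and 13.3 CPM at E14.5 and 10.6, 12.2 and 8.6 at P60. It rose by 1.98 ± 0.34 in the first step (adjusted p = 0.00039) and its levels at E14.5 and P60 overlapped (log2 fold change -0.20 ± 0.32, adjusted p = 0.58). Lama4, a chain of endothelial basement membranes, was at 20.9, 20.7 and 23.9 CPM at E9.5, 26.3, 44.2 and 47.9 CPM at E14.5 and 5.4, 7.02 and 4.69 at P60. Each E14.5 library lay above the others for Lama4, with a rise of 0.86 ± 0.23 (adjusted p = 0.0065), after which it fell by 2.79 ± 0.24 (adjusted p = 1.9e-06). The summed endothelial markers were 419 to 443 CPM at E9.5, 341 to 383 at E14.5 and 289 to 312 at P60, and their part in the course of Lama4 was not tested. Lama3, the alpha chain of skin basement membranes, never exceeded 2.24 CPM. It rose by 1.93 ± 0.53 in the first step (adjusted p = 0.0078; 2.69 without the third E9.5 library), and its E14.5 level overlapped both other stages.

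Per kilobase, the alpha chains changed places. Lama1 made up 50.6% of the summed laminin alpha chain level at E9.5, 38.4% at E14.5 and 11.1% at P60. The share of Lama5 was 41.1%, 14.8% and 19.4%, that of Lama4 7.42%, 37.0% and 25.4%, and that of Lama2 0.752%, 8.14% and 34.6%. At P60 Lama2 therefore held the highest mean share of the 5 chains. The log2 ratio of Lama1 to Lama2 per kilobase was 5.46 ± 0.19 at E9.5, 2.09 ± 0.24 at E14.5 and -1.27 ± 0.09 at P60 (SD, n = 3, pseudocount of 0.1 CPM per kb), with no overlap between the stages. It was positive in each of the 6 embryonic libraries and negative in the 3 adult ones.

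Among the beta chains, Lamb1 and Lamb2 fell at both steps, with smaller fitted falls for Lamb2. Lamb1 was at 124, 125 and 125 CPM at E9.5, 63.6, 77.7 and 82.3 CPM at E14.5 and 13.6, 18.7 and 12.1 at P60. It fell by 0.74 ± 0.17 (adjusted p = 0.0033) and then by 2.33 ± 0.18 (adjusted p = 8.6e-07). Lamb2, the beta chain of the neuromuscular synapse and of the kidney filter, had 73, 74.2 and 79.5 CPM at E9.5, 43.2, 55.1 and 59.2 CPM at E14.5 and 21.7, 25.6 and 19 at P60. The stages did not overlap for either gene. Lamb2 fell by 0.53 ± 0.16 (adjusted p = 0.013) and then by 1.25 ± 0.16 (adjusted p = 3.9e-05). Without the third E9.5 library the first of these falls was no longer called (adjusted p = 0.051). The log2 ratio of Lamb1 to Lamb2 per kilobase was 0.02 ± 0.06 at E9.5, -0.19 ± 0.04 at E14.5 and -1.24 ± 0.11 at P60, and the libraries of the stages did not overlap. Lamb3, a partner of Lama3 in skin, had 0.663 to 1.00 CPM at E9.5 and 2.61 to 3.33 at P60. Its rise of 1.19 ± 0.23 from E14.5 to P60 was called (adjusted p = 0.00072), while that of 0.64 ± 0.25 before it (adjusted p = 0.04) was lost under 7 of 16 alternatives, with an adjusted p of up to 0.15.

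Lamc1 encodes the gamma chain of most laminins. It stood at 147, 203 and 204 CPM at E9.5, 37.1, 98.2 and 95.7 CPM at E14.5 and 11.7, 19.1 and 8.99 at P60, with no overlap between stages. The first E14.5 library was the low one. Lamc1 fell by 1.26 ± 0.36 in the first step (adjusted p = 0.01) and by 2.54 ± 0.38 in the second (adjusted p = 0.00012). Lamc3, a gamma chain found outside basement membranes as well, followed another course: 9.91, 9.78 and 11.7 CPM at E9.5, 20.1, 23 and 20.4 CPM at E14.5 and 4.17, 5.7 and 3.62 at P60. It rose by 1.02 ± 0.18 (adjusted p = 0.00053) and then fell by 2.23 ± 0.19 (adjusted p = 1.5e-06).

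**Figure D1:**
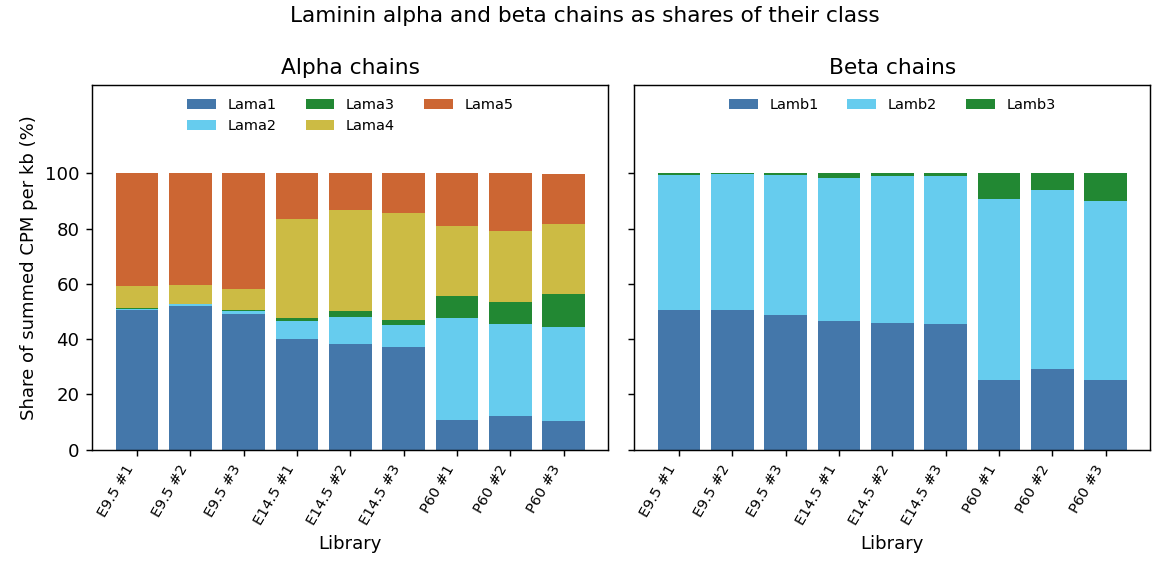
Share of each laminin chain in the summed level of its chain type (percent of CPM per kilobase of exon), for alpha and beta chains, with 1 stacked bar for each of the 9 libraries. From E9.5 to P60 the mean share of Lama1 went from 50.6% to 11.1% of the alpha chains and that of Lama2 from 0.752% to 34.6%, while Lamb2 went from 49.4% to 65.1% of the beta chains.

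The linker and partner proteins of the basement membrane were all lower at P60 than at E14.5, with 5 of 5 called. Of all genes, 39.4% were called lower in this step. From E9.5 to E14.5 only agrin rose, perlecan and fibronectin fell, and the nidogens were not called. Hspg2 encodes perlecan, a heparan sulphate proteoglycan. It had 234, 284 and 300 CPM at E9.5, 43.4, 73 and 86.9 CPM at E14.5 and 4.13, 6.55 and 3.83 at P60, falling by 2.01 ± 0.27 (adjusted p = 6.8e-05) and by 3.81 ± 0.30 (adjusted p = 8.3e-07). Fn1 encodes fibronectin, a matrix protein of mesenchyme and vessels. Its levels were 403, 512 and 545 CPM at E9.5, 78.3, 192 and 203 CPM at E14.5 and 26, 29.5 and 20.6 at P60, and it fell by 1.63 ± 0.31 (adjusted p = 0.00091) and by 2.64 ± 0.33 (adjusted p = 2.6e-05). Neither gene overlapped between stages, and for both the first E14.5 library was the lowest of its stage. Of the mesenchyme and meninges markers, 4 of 15 rose and 9 fell in the first step, and 2 rose and 11 fell in the second, where 30.7% and 39.4% of all genes fell. Their part in the falls of Fn1 and Hspg2 was not tested.

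Agrn encodes agrin, the proteoglycan that clusters acetylcholine receptors at the neuromuscular synapse and lies in brain vessel basement membranes. It was at 342, 401 and 390 CPM at E9.5, 514, 765 and 779 CPM at E14.5 and 78.5, 82.9 and 64.9 at P60. Each E14.5 library lay above each E9.5 library, and the P60 libraries lay below both. Agrn rose by 0.86 ± 0.18 (adjusted p = 0.0018) and then fell by 3.18 ± 0.20 (adjusted p = 1.6e-07), to a P60 level 5.0-fold below that at E9.5. Per kilobase it was the highest of the members at E14.5, at 73.9 ± 16.0 CPM per kb (SD, n = 3).

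The nidogens bridge laminin and collagen IV. Nid1 had 74.4, 100 and 113 CPM at E9.5, 40, 105 and 102 CPM at E14.5 and 4.43, 6.31 and 2.8 at P60. Its embryonic stages overlapped (log2 fold change -0.22 ± 0.36, adjusted p = 0.61), and without the first E14.5 library the estimate was 0.12. Nid1 then fell by 4.19 ± 0.42 (adjusted p = 4.9e-06). Nid2 stood at 73.4, 93.7 and 96.8 CPM at E9.5, 25, 62.8 and 61.6 CPM at E14.5 and 2.27, 4.38 and 1.97 at P60. The embryonic difference of Nid2 was -0.82 ± 0.35 (adjusted p = 0.059), although its stages did not overlap, and with the replicate number as a block it was -0.91 and called (adjusted p = 0.0067). Over its alternatives that adjusted p ranged from 0.0067 to 0.14. Nid2 fell by 4.11 ± 0.41 in the second step (adjusted p = 4.7e-06). Of its exon bases, 8.4% lie opposite exons of Rtraf, and without a stated strand setting the reads of the overlap cannot be assigned. The log2 ratio of Nid1 to Nid2 per kilobase was -0.31 ± 0.10 at E9.5, 0.29 ± 0.03 at E14.5 and 0.20 ± 0.22 at P60.

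Dag1 encodes dystroglycan, the receptor that binds laminin, agrin and perlecan through its sugar chains. It was at 199, 257 and 240 CPM at E9.5, 90.7, 164 and 159 CPM at E14.5 and 48.3, 71.9 and 38.6 at P60, with no overlap. It fell by 1.38 ± 0.27 from E14.5 to P60 (adjusted p = 0.00076). The fall of 0.75 ± 0.27 in the first step (adjusted p = 0.028) was lost under 5 alternatives, with an adjusted p of up to 0.085. Without the first E14.5 library it was -0.52 (adjusted p = 0.082).

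**Figure D2:**
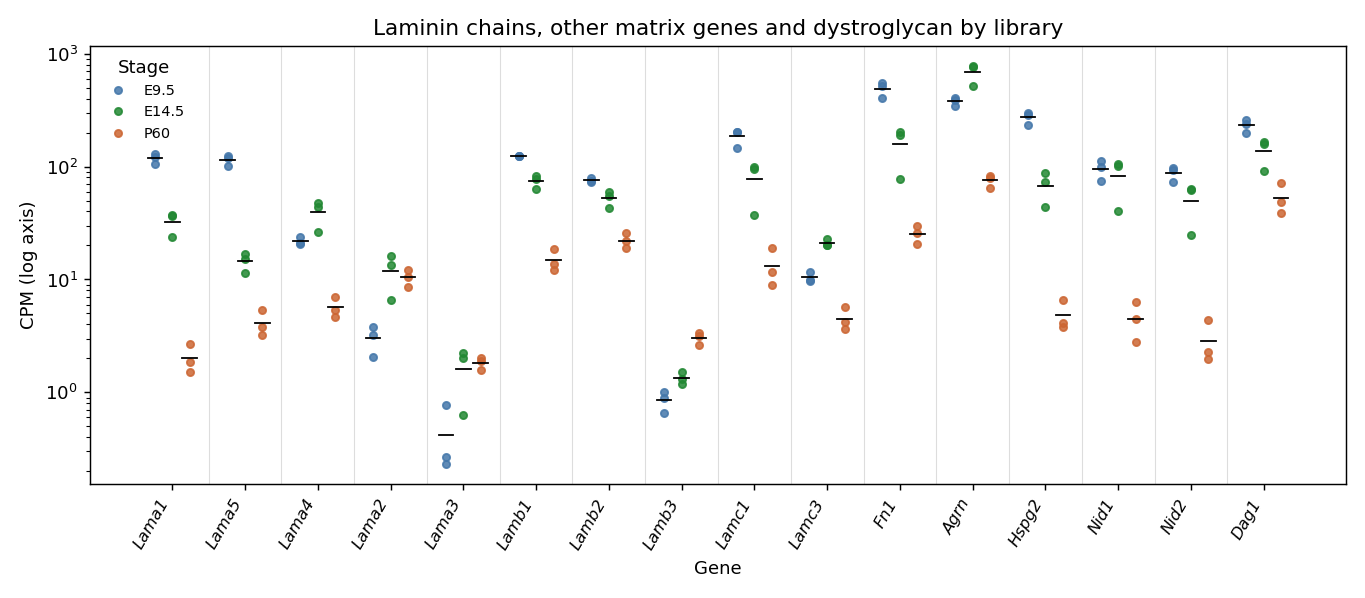
Levels of laminin chains and of the other matrix genes and dystroglycan (CPM, log axis) at E9.5, E14.5 and P60, with each library as a point and black bars at the stage means. Lama1 dropped from 106 to 130 CPM at E9.5 to 1.53 to 2.67 CPM at P60, while Agrn peaked at E14.5 with 514 to 779 CPM.

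Integrins are receptors made of an alpha and a beta subunit, and the alpha subunit largely sets the ligand. Of 24 integrin genes tested, 4 rose and 12 fell from E9.5 to E14.5, 10 rose and 9 fell from E14.5 to P60, and 6 were higher and 12 lower at P60 than at E9.5. Of all genes, 34.0% rose and 30.7% fell in the first step, and 36.7% and 39.4% did in the second. At P60, 42.0% were higher and 40.6% lower than at E9.5. In the first step the integrin genes had a smaller share of rises (16.7%) and a larger share of falls than all genes. In the second step the integrin genes were near the background, with 41.7% higher and 37.5% lower. Their summed level per kilobase was 156 ± 4.15 CPM per kb at E9.5, 78.5 ± 5.54 at E14.5 and 62.6 ± 7.29 at P60 (SD, n = 3). The 6 tested leukocyte integrin genes had 1 rise and 1 fall in the first step (16.7% each). In the second they had 5 rises (83.3%) and 0 falls. Itgad, among these 5, passed the filter on low counts only through its P60 libraries, where it was high. Its rise therefore adds no support, here or in the counts over all members. The 18 others had 3 rises and 11 falls, and then 5 rises and 9 falls.

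Itga3, Itga6 and Itga7 encode the alpha subunits of laminin receptors. Itga6 had 119, 156 and 139 CPM at E9.5, 37.8, 57.3 and 58.4 CPM at E14.5 and 15.5, 21.8 and 15.4 at P60, and fell by 1.43 ± 0.21 (adjusted p = 0.00013) and by 1.54 ± 0.21 (adjusted p = 5.9e-05). Itga3 was at 56.9, 52.7 and 57.4 CPM at E9.5, 23.1, 23.2 and 25 CPM at E14.5 and 20, 24 and 14.4 at P60. It fell by 1.23 ± 0.18 in the first step (adjusted p = 0.00012), and in the second its stages overlapped (-0.29 ± 0.18, adjusted p = 0.16; -0.47, adjusted p = 0.019 without the second P60 library). Itga7, known as the laminin receptor subunit of muscle, ran the other way, with 1.00, 0.697 and 0.894 CPM at E9.5, 3.38, 4.67 and 6.07 CPM at E14.5 and 17.4, 17.5 and 18.1 at P60. No stages overlapped for Itga7. It rose by 2.44 ± 0.25 (adjusted p = 7.8e-06) and by 1.91 ± 0.22 (adjusted p = 1.4e-05), 20.3-fold in all. Per kilobase, the log2 ratio of Itga6 to Itga3 was 0.64 ± 0.25 at E9.5, 0.41 ± 0.32 at E14.5 and -0.77 ± 0.23 at P60. The embryonic stages overlapped in this ratio, and each P60 library was below them.

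Itga5, Itgav, Itga8 and Itga2b encode alpha subunits of receptors that bind the RGD peptide motif of fibronectin and related proteins. Itga5, the subunit of the main fibronectin receptor, stood at 77.3, 84.2 and 81.1 CPM at E9.5, 14.2, 20.3 and 21.3 CPM at E14.5 and 1.57, 2.73 and 1.77 at P60. It fell by 2.12 ± 0.21 (adjusted p = 7e-06) and by 3.19 ± 0.23 (adjusted p = 5e-07), to a level 39.8-fold below that at E9.5. Itgav, whose product pairs with several beta subunits and binds vitronectin and latent TGF-beta, had 27, 37.7 and 38.4 CPM at E9.5, 11, 20.9 and 20.8 CPM at E14.5 and 52.1, 58.3 and 53.9 at P60. Thus Itgav fell by 0.97 ± 0.24 (adjusted p = 0.0043) and then rose by 1.64 ± 0.24 (adjusted p = 9.6e-05). Its net rise of 0.67 ± 0.23 (adjusted p = 0.02) was lost without the first E9.5 library (adjusted p = 0.091) or the second P60 library (adjusted p = 0.051). The log2 ratio of Itga5 to Itgav per kilobase was 2.34 ± 0.22 at E9.5, 1.19 ± 0.19 at E14.5 and -3.38 ± 0.26 at P60, with no overlap.

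Itga8, a receptor subunit for nephronectin in the developing kidney, was at 15.1, 19.3 and 19.3 CPM at E9.5, 2.62, 4.2 and 4.06 CPM at E14.5 and 6.4, 4.7 and 7.07 at P60. It fell by 2.30 ± 0.23 (adjusted p = 7.7e-06) and rose by 0.74 ± 0.23 (adjusted p = 0.012), a rise that was lost without the third P60 library (adjusted p = 0.059). Itga2b, the alpha subunit of the platelet fibrinogen receptor, had 8.43 to 10 CPM at E9.5 and 3.08 to 5.9 later. It fell by 1.17 ± 0.22 in the first step (adjusted p = 0.00086) and was not called in the second (0.35, adjusted p = 0.17). Without the first E14.5 library the second step of Itga2b was 0.58 and called (adjusted p = 0.027, over all alternatives 0.027 to 0.51). Its partner Itgb3 had 15.5, 11.1 and 11.2 CPM at E9.5, 2.59, 3.02 and 3.45 CPM at E14.5 and 1.87, 2.7 and 1.71 at P60. Itgb3 fell by 2.06 ± 0.23 in the first step (adjusted p = 1.7e-05), and its second step was -0.53 (adjusted p = 0.061), called under 4 alternatives. The platelet markers summed to 14.3 to 16.9 CPM at E9.5, 17.3 to 29 at E14.5 and 6.73 to 8.43 at P60. Of the 8 tested, 2 rose and 3 fell in the first step, where 34.0% and 30.7% of all genes did. Gp1bb rose from a mean of 0.387 to 13.6 CPM in that step, and Clec1b fell from 8.81 to 0.957 CPM. The part of the platelet markers in the falls of Itga2b and Itgb3 was not tested.

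Itga4 and Itga9 encode a related pair of subunits that bind VCAM-1, tenascin and spliced forms of fibronectin. Itga9 was at 71.4, 72.6 and 80.5 CPM at E9.5, 7.08, 9.51 and 8.46 CPM at E14.5 and 4.2, 6.4 and 3.77 at P60. It fell by 3.16 ± 0.21 in the first step (adjusted p = 3.4e-07), with a further fall of 0.80 ± 0.21 (adjusted p = 0.0044). Itga4 had 13.1, 18 and 18.2 CPM at E9.5, 5.58, 13.3 and 14.3 CPM at E14.5 and 3.93, 5.9 and 2.8 at P60. Its embryonic stages overlapped (-0.57, adjusted p = 0.17), and it fell by 1.39 ± 0.36 in the second step (adjusted p = 0.0046).

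Itga1, Itga2, Itga10 and Itga11 encode the collagen-binding subunits. Itga1 had 2.44, 3.58 and 3.7 CPM at E9.5, 6.48, 11.6 and 10.4 CPM at E14.5 and 3, 4.82 and 2.77 at P60. The E14.5 libraries were above all others, and Itga1 rose by 1.55 ± 0.29 (adjusted p = 0.00079) and fell by 1.43 ± 0.29 (adjusted p = 0.00099), back to a level not called different from E9.5 (0.12, adjusted p = 0.71). Itga11, a receptor subunit of fibroblasts, also rose and then fell, with 0.803 to 1.4 CPM at E9.5, 3.29 to 8.97 at E14.5 and 0.867 to 1.35 at P60. It rose by 2.49 ± 0.37 (adjusted p = 0.00016) and fell by 2.5 ± 0.37 (adjusted p = 0.00011). Itga2, known from platelets and epithelia, had at most 4.2 CPM in any library and fell by 4.28 ± 0.61 in the second step (adjusted p = 7.4e-05). Its first step, 1.04, was not called (adjusted p = 0.074), but was 0.96 and called with the replicate number as a block (adjusted p = 0.044). Without the first E14.5 library it was 1.40 (adjusted p = 0.0095), and over all alternatives its adjusted p ranged from 0.0095 to 0.24. Of the exon bases of Itga10, 33.5% are shared on the same strand with the gene model Gm42957, which had 15 counts in all. Itga10, at means of 5.22, 3.79 and 1.02 CPM, fell by 1.89 in the second step (adjusted p = 8.4e-06). Its first fall of 0.46 (adjusted p = 0.047) was lost under 11 of 16 alternatives, the replicate block among them (adjusted p = 0.058), with an adjusted p of up to 0.18.

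Of the beta subunits, Itgb1 is the common partner of the laminin, collagen and fibronectin receptors. It was at 288, 288 and 291 CPM at E9.5, 177, 171 and 176 CPM at E14.5 and 82.4, 92.2 and 86.9 at P60. The libraries of a stage lay close together, and Itgb1 fell by 0.73 ± 0.12 (adjusted p = 0.00027) and by 1.00 ± 0.12 (adjusted p = 1.8e-05). Per kilobase it was the highest member at E9.5, at 70.8 ± 0.496 CPM per kb, and at P60, at 21.4 ± 1.20 CPM per kb (SD, n = 3). Itgb5, a partner of Itgav, had 63.5, 54.9 and 63.1 CPM at E9.5, 30.6, 29.9 and 30 CPM at E14.5 and 39.7, 52.8 and 35.9 at P60. It fell by 1.01 ± 0.16 (adjusted p = 0.00023) and rose by 0.51 ± 0.16 (adjusted p = 0.013), a rise that scaling by library totals left uncalled (adjusted p = 0.054). The net fall of 0.50 (adjusted p = 0.012) was lost without the first (adjusted p = 0.056) or the third P60 library (adjusted p = 0.052). Itgb1 made up 75.7%, 76.4% and 51.2% of the summed beta subunit level per kilobase at the 3 stages, and Itgb5 18.2%, 15.1% and 28.5%. The log2 ratio of Itgb1 to Itgb5 was 2.05 ± 0.11, 2.32 ± 0.02 and 0.84 ± 0.23, with the P60 libraries below all others.

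Itgb8, another partner of Itgav, which activates latent TGF-beta in the brain, was not called in any comparison. Its levels were 21.9, 36.3 and 36.5 CPM at E9.5, 18.8, 52.4 and 51.4 CPM at E14.5 and 28.6, 48.3 and 30.4 at P60. The first library of both embryonic stages was low, and without the first E14.5 library the first step was 0.73 and called (adjusted p = 0.036; over all alternatives 0.036 to 0.75). Itgb4, the beta subunit of hemidesmosomes, had 2.74, 2.02 and 2.46 CPM at E9.5, 1.27, 1.87 and 1.78 CPM at E14.5 and 14.8, 18.5 and 10.1 at P60. It rose by 3.14 ± 0.27 in the second step (adjusted p = 1.6e-06), 8.79-fold, while its partner Itga6 fell. Itgb6, an epithelial subunit, had 33, 7 and 11 reads in all at the 3 stages.

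**Figure D3:**
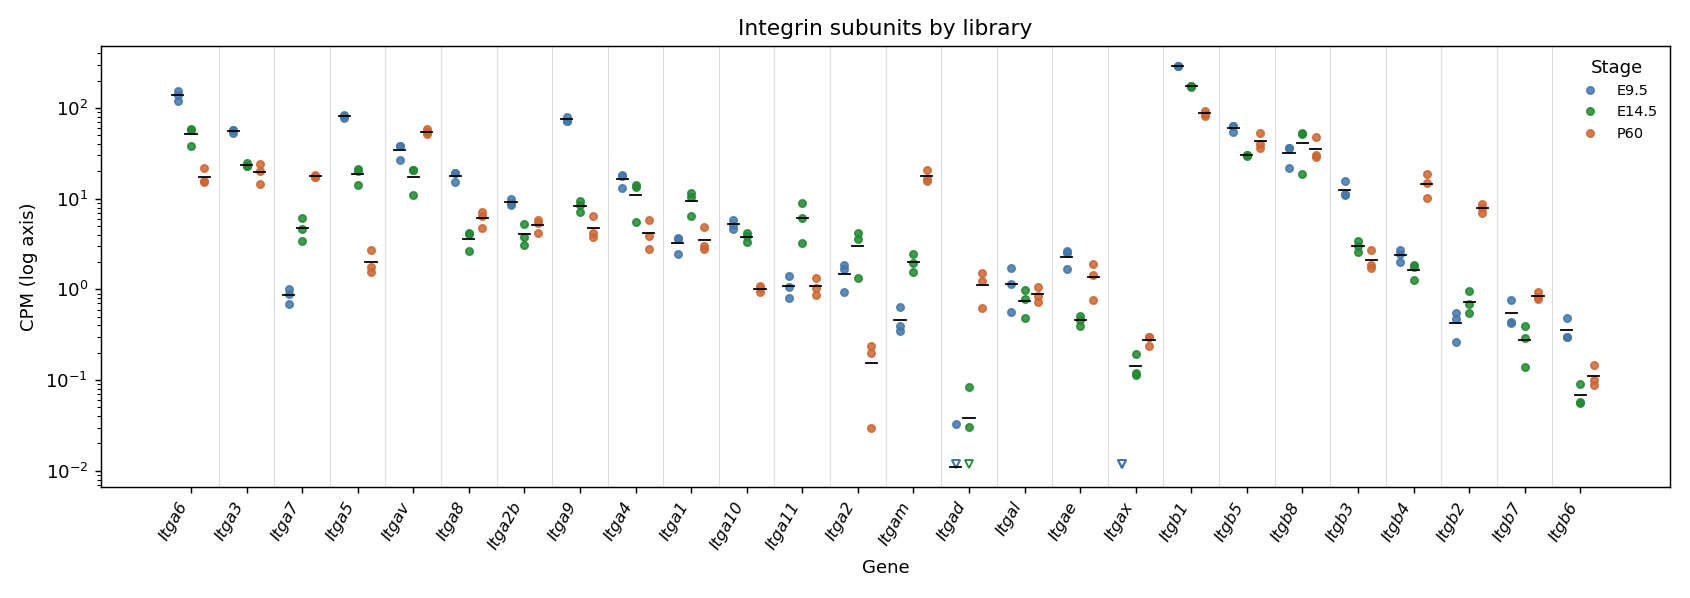
Levels of the integrin subunit genes (CPM, log axis) at E9.5, E14.5 and P60, with each library as a point, black bars at the stage means and open triangles for libraries with 0 reads. Itga5 fell from 77.3 to 84.2 CPM at E9.5 to 1.57 to 2.73 CPM at P60, while Itga7 rose from at most 1.00 to at least 17.4 CPM.

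The leukocyte integrins were low in the embryo, and those of myeloid cells rose towards P60. Itgam and Itgb2 together form a complement receptor of microglia, macrophages and neutrophils. Itgam was at 0.636, 0.398 and 0.351 CPM at E9.5, 1.57, 2.46 and 1.96 CPM at E14.5 and 16.4, 21 and 15.8 at P60, with no overlap. It rose by 2.11 ± 0.28 (adjusted p = 6.9e-05) and by 3.15 ± 0.24 (adjusted p = 7.5e-07), 38.2-fold in all. Of its exon bases, 68.7% are shared on the same strand with the gene model Gm49368, which has no row of its own in the table. Itgb2 had 0.265 to 0.543 CPM at E9.5, 0.543 to 0.951 at E14.5 and 7, 8.78 and 7.81 at P60. Its first step of 0.77 was not called (adjusted p = 0.055; called under 3 alternatives), and it rose by 3.42 ± 0.28 in the second (adjusted p = 1.2e-06). Microglia and macrophage markers summed to 27.9 to 30.8 CPM at E9.5, 123 to 140 at E14.5 and 671 to 698 at P60. At P60, where 42.0% of all genes were called higher than at E9.5, 15 of 15 of these markers were. By step, 14 rose and 1 fell in the first, where 34.0% and 30.7% of all genes did. In the second, 12 rose and 3 fell, where 36.7% and 39.4% of all genes did. The part of these markers in the rise of Itgam and Itgb2 was not tested.

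Itgad, a further partner of Itgb2, had 1 read at E9.5, 4 at E14.5 and 109 at P60. The ratio of P60 to E9.5 was 98.4, with a 95% interval of 17.3 to 3920 that covers counting error only. Itgax, a dendritic cell and microglia subunit, had 0 reads at E9.5, 15 at E14.5 and 27 at P60. Against a floor of 3 counts summed over the E9.5 libraries, it was at least 8.13-fold higher at P60. Itgae, a subunit of lymphocytes in epithelia, went from a mean of 2.26 CPM to 0.455 and 1.37, falling by 2.31 (adjusted p = 0.00022) and rising by 1.59 (adjusted p = 0.0023). Itgb7, its partner, was at means of 0.544, 0.273 and 0.851 CPM and rose in the second step (1.63, adjusted p = 0.0027). The first step of Itgb7 was not called, but was -1.33 and called without the first E14.5 library (adjusted p = 0.025, over all alternatives 0.025 to 0.23). Itgal, the subunit of a lymphocyte adhesion receptor, had means of 1.15, 0.748 and 0.882 CPM and was not called in any comparison. Without the first E9.5 library its first step was -0.92 and called (adjusted p = 0.049, over all alternatives 0.049 to 0.69). The lymphoid markers summed to at most 1.06 CPM in the embryo and 2.67 to 4.02 CPM at P60. Of these 10 markers, 9 had too few reads to be tested. The other, Cd4, held 1.03, 3.05 and 1.83 CPM at P60.

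**Figure D4:**
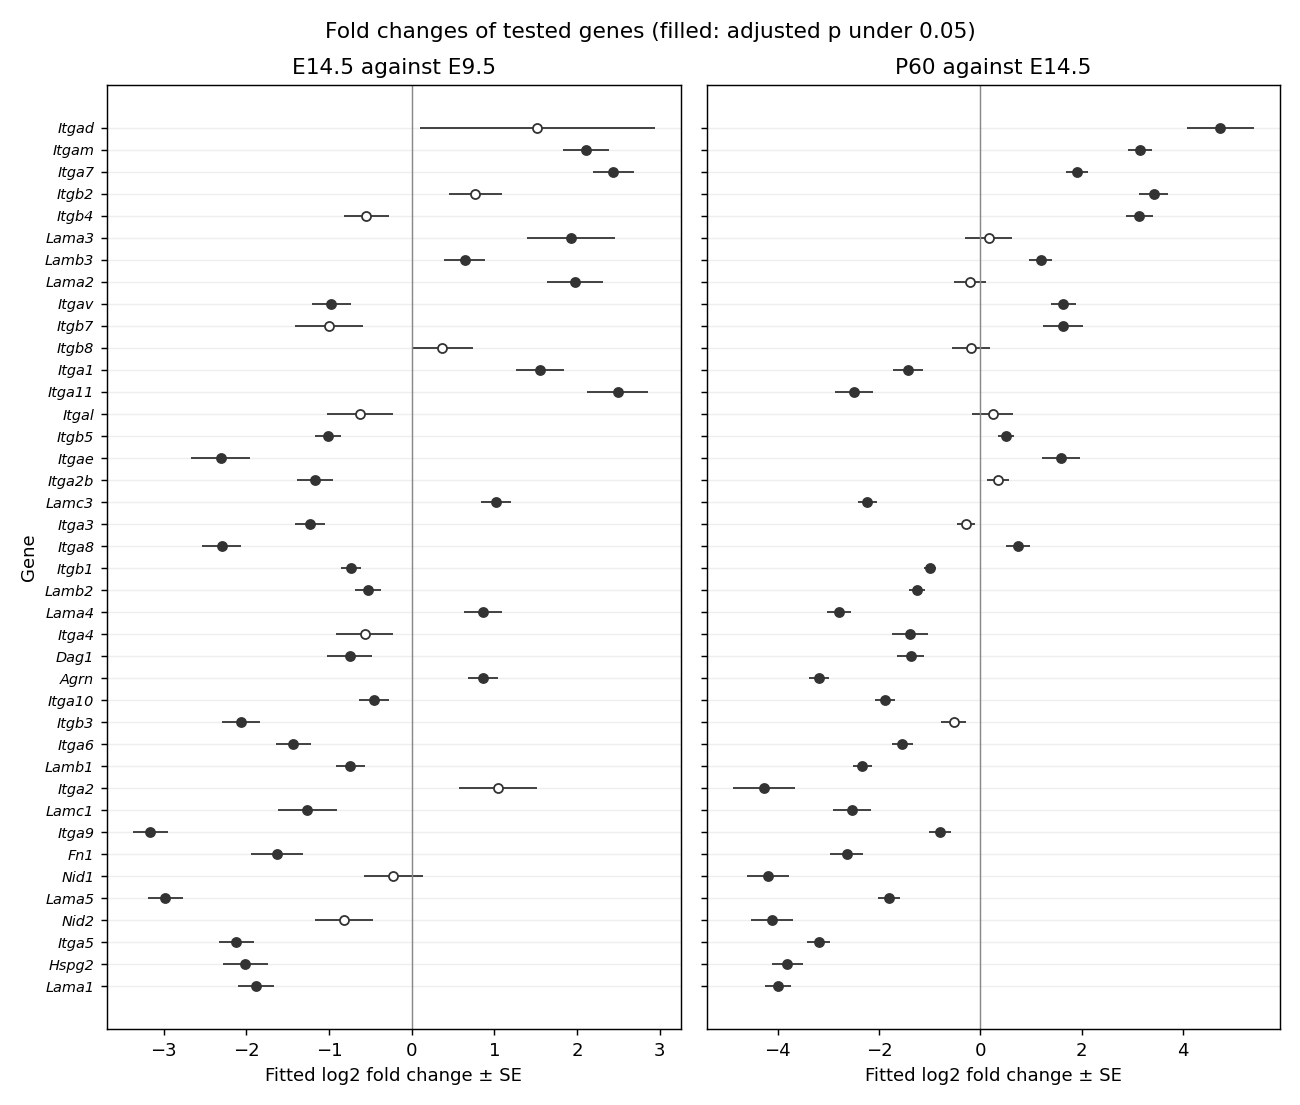
Fitted log2 fold changes of tested members with their SE, for E14.5 against E9.5 and for P60 against E14.5, ordered from the highest to the lowest change between E9.5 and P60, with filled points where the adjusted p was below 0.05. Hspg2, Lama1 and Nid1 are far below 0 in the second step (-3.81, -4.00 and -4.19), and Itgam, Itgb2 and Itgb4 are above it (3.15, 3.42 and 3.14).

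Among all members, Itgb1 led at E9.5 per kilobase, ahead of Fn1 at 41.7 ± 6.34, Agrn at 40.7 ± 3.39 and Dag1 at 36.5 ± 4.63 CPM per kb. Those last 3 genes overlapped within their SDs. At E14.5 the order was Agrn, then Itgb1 at 42.8 ± 0.765, Dag1 at 21.7 ± 6.44 and Fn1 at 13.5 ± 5.90 CPM per kb, the last pair overlapping within their SDs. At P60 it was Itgb1, then Itgb5 at 12 ± 2.5, Dag1 at 8.33 ± 2.69 and Agrn at 8.13 ± 1.01 CPM per kb, where Dag1 overlapped both neighbours within the SDs. Summed over all members, the level was 399 ± 32.3 CPM per kb at E9.5, 252 ± 53.7 at E14.5 and 93.5 ± 14.1 at P60.

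The partners of these genes moved unevenly. Integrin adhesion complex genes, which tie integrins to actin, had 3 rises and 14 falls among 20 in the first step and 4 rises and 10 falls in the second. Of all genes, 34.0% rose and 30.7% fell in the first step, and 36.7% and 39.4% did in the second. The share of adhesion complex genes called was above that of all genes in the first step (64.6%) and below it in the second (76.1%). Src, an adhesion kinase, rose from 69.1 to 184 CPM in the first step (1.41 ± 0.21, adjusted p = 0.00014), and Fermt1, the epithelial kindlin, fell from 11 to 0.0762 CPM (-7.09 ± 0.59, adjusted p = 1.7e-06). In the second step Lims2, an adaptor of integrin-linked kinase, rose from 1.12 to 15.6 CPM (3.79 ± 0.25, adjusted p = 2.3e-07), and Pxn, paxillin, fell from 45.7 to 13.6 CPM (-1.75 ± 0.25, adjusted p = 6.9e-05).

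The dystrophin-glycoprotein complex anchors dystroglycan inside the cell. Counted together with Aqp4 and Kcnj10, channels listed with it, its genes went against the fall of Dag1 in the second step. Of 15 genes tested, 5 rose (33.3%) and 4 fell (26.7%) in the first step, near the shares of all genes (34.0% and 30.7%). In the second, 11 rose (73.3%) and 0 fell, where 36.7% and 39.4% of all genes did. The median log2 fold change of that step was 1.40, beside -0.06 for all genes. Aqp4, the water channel of astrocyte endfeet, rose from 1.53 to 122 CPM in the second step (6.31 ± 0.41, adjusted p = 2.1e-07). In the first step Kcnj10, an astrocyte potassium channel, rose from 1.54 to 18.1 CPM (3.55 ± 0.33, adjusted p = 3.6e-06), and Sntb2, a syntrophin, fell from 18 to 3.6 CPM (-2.32 ± 0.43, adjusted p = 0.00066). Astrocyte markers, Aqp4 among them, summed to 503 to 688 CPM at E14.5 and 4800 to 4840 at P60. The part of these markers in the rises was not tested. Of 16 genes that build the sugar chain of dystroglycan, 3 rose (18.8%) and 5 fell (31.2%) in the first step. In the second, 12 rose (75.0%) and 3 fell (18.8%), with a median of 0.68. B4gat1, which primes the laminin-binding part of the chain, rose from 42 to 198 CPM in the second step (2.24 ± 0.14, adjusted p = 2.1e-07). B3galnt2 fell from 63.6 to 23.5 CPM in the first step (-1.44 ± 0.16, adjusted p = 1.6e-05), and Pomt1, which starts the chain, fell from 34.5 to 11.2 CPM in the second (-1.62 ± 0.17, adjusted p = 6.8e-06).

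Of 28 other basement membrane genes, 9 rose and 9 fell in the first step (32.1% each), near the shares of all genes (34.0% and 30.7%). In the second, 6 rose (21.4%) and 19 fell (67.9%), where 36.7% and 39.4% of all genes did (median -1.47 for these 28). Col4a1, a chain of collagen IV, fell from 395 to 12.3 CPM in the second step (-5.00 ± 0.20, adjusted p = 8.7e-09). In that step the nidogens and 7 of 11 laminin chains fell too, while 2 laminin chains rose. Frem2, a protein of epithelial basement membranes, fell from 146 to 13.3 CPM in the first step (-3.45 ± 0.24, adjusted p = 4.2e-07). The largest called rises with at least 10 CPM were those of Ntng1, a laminin-related axon guidance protein, from 1.77 to 30.6 CPM in the first step (4.11 ± 0.18, adjusted p = 2.1e-08), and Smoc2, a calcium-binding matrix protein, from 2.19 to 22.3 CPM in the second (3.35 ± 0.41, adjusted p = 2.5e-05). Among 18 other receptors for laminin and matrix, 3 rose and 8 fell, and then 9 rose and 8 fell. Bcam, a receptor for the Lama5 chain, fell from 91 to 10.4 CPM in the first step (-3.12 ± 0.19, adjusted p = 1.6e-07), in which Lama5 fell too. In the second step Bcam rose to 27.6 CPM (1.40 ± 0.18, adjusted p = 3.2e-05), while Lama5 fell again. The syndecans, transmembrane proteoglycans, split: Sdc3 rose in the first step from 95.7 to 441 CPM (2.20 ± 0.24, adjusted p = 1.2e-05), and in the second Sdc4 rose from 5.36 to 105 CPM (4.30 ± 0.16, adjusted p = 7.6e-09) while Sdc1 fell from 32.1 to 2.43 CPM (-3.72 ± 0.14, adjusted p = 7.6e-09).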

How the data were processed

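Raw counts of reads per gene in 9 libraries, 3 per stage, were used as deposited by the authors. Per the submitters' processing notes, Trimmomatic 0.36 and STAR 2.5.2b were used and the build was mm10. The counting program, annotation and strand setting are not given in the sources used here. Overlapping genes may share reads. Of 45706 rows, 45143 matched GENCODE M21 (GRCm38), which gave symbols and exon lengths (the union of all annotated exons, so levels per kilobase are approximate). All columns were used. PCR copies carry no molecular identifiers, so intervals and floors cover counting error only.

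Counts were fitted in R 4.3.3 with edgeR 4.0.16 (TMM, filterByExpr, robust quasi-likelihood test, stage as the only factor), which tested 17971 genes, two-sided, with Benjamini-Hochberg adjustment and a threshold of 0.05. The SE is approximate: the size of the log2 fold change divided by the root of F. The biological coefficient of variation was 19.9%, so the spread between libraries limits abundant genes more than depth does. The fit was also run on simulated counts in which few genes changed, unlike in these data, and no result here rests on that run. Members with at least 10 CPM in a stage are described singly, others only where called or by range, and in each related list the called gene with the largest rise and fall per step and at least 10 CPM in its higher stage is named. Itgal, Itgax and Itgb6, outside that rule, were named to account for members below it. Some genes that these rules take in are not reported here. Members, lists and rules were chosen with earlier results of these data known.

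Deviations of same-numbered libraries correlated at 0.37, 0.141 and 0.209 between E9.5 and E14.5. Of the other pairs, the third E9.5 with the second E14.5 library (0.202) and the second with the third (0.185) were similar. The rest were negative, from -0.29 to -0.224. The data therefore did not settle pairs by number, and no stated design gives them. The main fit had no block, the block on replicate number was an alternative, and the blocked value is given where it changes a call. Alternatives were other scalings, no filter, the block, a fit of 2 stages, DESeq2 1.42.0, leaving out each library and another pseudocount. Promoter windows came from RefSeq, and proteins were not used here.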

Additional observations from a re-analysis of the deposited data

How the results depend on the processing

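Of 123 member fold changes, 100 were called, and 91 of these kept direction and call under every alternative run (4 scalings or filters, the replicate block, a fit of 2 stages, DESeq2 and each library left out). Most of the others are given in the report, and 0 called values reversed. Members called ranged from 28 to 32 for E14.5 against E9.5, 33 to 36 for P60 against E14.5 and 33 to 37 for P60 against E9.5. With the replicate block they were 32, 34 and 36. Between P60 and the embryonic stages same-numbered libraries did not all correlate (0.096, 0.114 and -0.1 with E9.5; 0.171, 0.337 and -0.224 with E14.5), 6 of 9 libraries correlated best with their own number, and the block there added only Itgae in P60 against E9.5 (-0.77, adjusted p = 0.049, range over alternatives 0.018 to 0.18). Against the TMM fit, upper quartile scaling moved the median of all genes by 0.16 and library totals by -0.14 in P60 against E14.5, and upper quartile by 0.15 in P60 against E9.5.

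The estimates that changed sign were all uncalled, and the cause was not tested. The ranges given here are over all alternatives. Nid1 in E14.5 against E9.5 ranged from -0.43 to 0.12 (the latter without E14.5 replicate 1). In P60 against E14.5, Lama3 ranged from -0.22 (without E14.5 replicate 1) to 0.45. Lama2 ranged from -0.5 to 0.06 and Itgb8 from -0.54 to 0.02, both highest without E14.5 replicate 2 (Itgb8 0.00 without E14.5 replicate 3). In P60 against E9.5 Itgb8 ranged from -0.09 to 0.33, Itga1 from -0.16 to 0.29, Itgal from -0.71 to 0.02 and Itga11 from -0.19 to 0.21. Itga11 also gave 0.01 with median-of-ratios scaling, the block and DESeq2, 0.14 with upper quartile scaling, 0.09 without a filter and 0.06 in the fit of 2 stages. With a pseudocount of 0.01 CPM per kb, the log2 ratio of Lama1 to Lama2 was 6.02 at E9.5 and -1.59 at P60, and that of Itga5 to Itgav -3.64 at P60. Among called fold changes that moved by over 1.5 times without a single library, Itgad went from 6.25 to 8.21 in P60 against E9.5 (without E9.5 replicate 2) and from 4.74 to 5.92 in P60 against E14.5 (without E14.5 replicate 2), and Lama3 from 1.93 to 2.69 in E14.5 against E9.5 and from 2.10 to 2.84 in P60 against E9.5 (both without E9.5 replicate 3). Depth limits Itgad, Itgax and Itgb6, which had at most 109, 27 and 33 reads in any stage.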
